A study of Homo sapiens with 9 samples.

Results

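The receptors of the transforming growth factor beta (TGF-beta) and bone morphogenetic protein (BMP) family were examined in SW1783 cells, an established human glioma line, after transfection of microRNA-376a* in either of its forms. The set held 9 genes in 3 classes: the type I receptors ACVR1, ACVR1B, BMPR1A and TGFBR1, the type II receptors ACVR2A, BMPR2 and TGFBR2, and the accessory receptors TGFBR3 and ENG. ACVR1 was chosen by its measured signals, namely its low signal with miR-376a*G and its difference between the forms, and the other receptors were chosen as its family with earlier results of these arrays known. The receptor values below are therefore given as a description, with no p-value. Where a receptor is said to pass the threshold of the fit across all genes, that too describes these arrays and is no independent evidence. Of the 9 genes, 8 had at least 1 probe set annotated to them alone, 24 of the 54675 probe sets on the array; BMPR1A was not analysed here.

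The samples fell into 3 groups of 3 biological replicates: cells given the miR-376a*A duplex (the unedited form), cells given the miR-376a*G duplex (the edited form), and cells given a control miRNA duplex (miR-control). All were transfected at 50 nM with a lipid reagent and total RNA was taken after 24 h, so that every sample is of the same line and has been through transfection. Values are signals of single-colour Affymetrix arrays, 1 array a sample. The study asked which genes differ after transfection of each form, relative to miR-control.

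Ligands of the TGF-beta family bring together type II and type I receptors, which are serine/threonine kinases, and the type II receptor phosphorylates the type I receptor. The activated type I receptor phosphorylates SMAD proteins: SMAD2 and SMAD3 on the TGF-beta and activin side, and SMAD1, SMAD5 and SMAD9 on the BMP side. Accessory receptors present ligand to the kinases. In glioma the pathway is known for its part in invasion and in the upkeep of stem-like cells.

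The miRNA is shown because both transfected forms derive from it, and because the edited base lies in its seed, the stretch that pairs with target transcripts. Its current name is hsa-miR-376a-5p, and RefSeq places the arm from MIR376A1 at chr14:101040788-101040809 on the plus strand of GRCh38.p14. The mature arm is 22 bases long, written 5′ to 3′ with the seed, bases 2 to 8, in capitals.
hsa-miR-376a-5p: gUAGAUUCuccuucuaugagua
The labels do not give the sequences of the transfected duplexes, and the edited form is not printed here.

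Across the 9 arrays the median signal lay between 18.8 and 24.0. Replicate 1 of miR-control stood apart: its highest rank correlation with any other array was 0.941, against 0.969 to 0.970 for the other 8 arrays. In it 556 of 12505 genes were at least 2-fold lower and 216 at least 2-fold higher than the mean of the other controls, replicates 2 and 3, which differed from each other by that much in 25 genes. Differences of the receptors from miR-control are therefore given with this array and without it. Of 9 glioma and astrocyte markers, 4 passed the filter on dim probe sets (VIM, CD44, SLC1A3 and SOX2), whereas GFAP, with signals of 1.30 to 3.75, S100B, NES, OLIG2 and AQP4 did not. Among markers of other cell types, 2 of 5 epithelial (KRT18 and KRT8), 1 of 4 endothelial (PECAM1) and 3 of 4 neuronal markers passed, and the leukocyte markers PTPRC, CD14 and CD3E did not.

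ACVR1, a type I receptor of the BMP branch, gave the lowest signals of the 3 groups in cells with miR-376a*G, and there its difference was the largest of the 8 measured receptors. Its only probe set read 232, 213 and 209.8 in the miR-376a*A replicates. It read 57.9, 54.8 and 64.9 in the miR-376a*G replicates, against 98.9, 256 and 271 in the miR-control replicates. All 3 miR-376a*G arrays were below every other array, and the lowest of the other 6 was control replicate 1. Group means were 218 ± 12.1 for miR-376a*A, 59.2 ± 5.16 for miR-376a*G and 208 ± 95.1 for miR-control (SD, n = 3 each). In such bulk RNA, fewer cells that carry a transcript and less of it per cell cannot be told apart.

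On the scale used for all fits, log2 of the signal plus 16 after quantile normalization, ACVR1 differed by -1.46 (SE 0.27, 95% interval -2.07 to -0.85) between miR-376a*G and miR-control, 2.75-fold lower. Without control replicate 1 the difference was -1.86 (SE 0.09), 3.62-fold lower. Between miR-376a*A and miR-376a*G it was 1.63 (SE 0.27, interval 1.02 to 2.24), 3.10-fold higher with the unedited form, with an SE of 0.08 once control replicate 1 was left out. That array lay 1.20 below the mean of the other controls for ACVR1 (a difference of -1.20), a gap larger in size than that of 97.1% of genes. Leaving out any 1 of the miR-376a*G arrays gave -1.51 to -1.40 for miR-376a*G against miR-control and left ACVR1 short of the threshold, an adjusted p of 0.05 over all genes, as did fitting only the 6 arrays compared. The difference between the forms also fell short of it without any 1 of the miR-376a*A arrays or without miR-376a*G replicate 1 or 2, at 1.57 to 1.65.

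Between miR-376a*A and miR-control, ACVR1 depended on control replicate 1 for its sign. The difference was 0.17 (SE 0.27, interval -0.44 to 0.78) with all arrays and -0.23 (SE 0.09, interval -0.43 to -0.02) without it. In that second setting all 3 miR-376a*A arrays lay below both controls, and the difference did not reach the threshold.

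**Figure D1:**
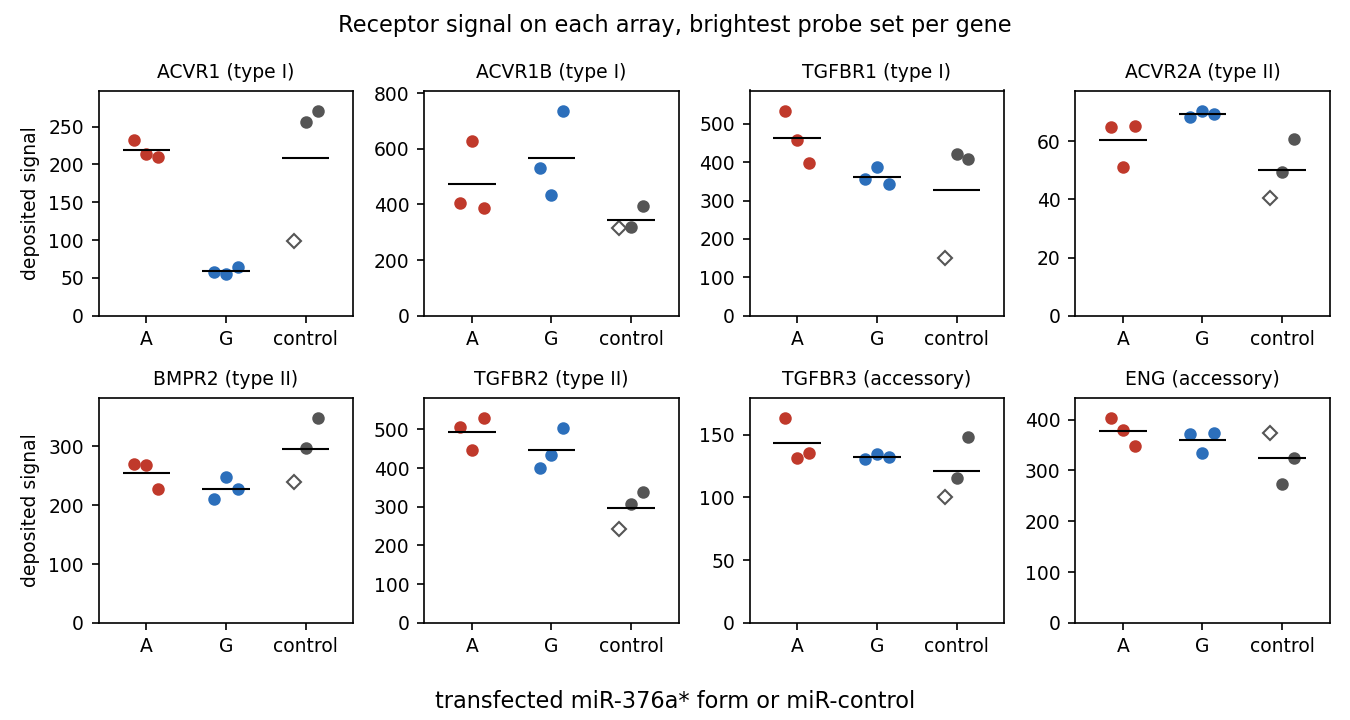
Deposited signal (linear scale) of the brightest probe set of each of the 8 measured receptors in the 9 arrays, by transfected form (A, miR-376a*A; G, miR-376a*G; control, miR-control). Points are arrays, the open diamond is control replicate 1 and bars are group means; for ACVR1 the 3 miR-376a*G arrays, at 54.8 to 64.9, lie below all others, and for TGFBR2 the 3 miR-control arrays, at 243 to 338, do.

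The other type I receptors showed smaller differences. ACVR1B, a type I receptor for activin, nodal and related ligands, had signals of 405, 629 and 389 with miR-376a*A and 529, 435 and 736 with miR-376a*G, against 316, 319 and 393 with miR-control. The miR-376a*G arrays lay above all controls (0.64, SE 0.22), while the miR-376a*A arrays overlapped them (0.40, SE 0.22). These differences were 0.62 and 0.38 without control replicate 1. The second probe set past the filter went the other way at -0.13 for the unedited and -0.19 for the edited form, and stood at 0.12 and 0.06 without control replicate 1. The remaining 4 ACVR1B probe sets were below the filter.

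TGFBR1, the type I receptor for TGF-beta itself, had its lowest value in control replicate 1. Its signals were 533, 457 and 398 with miR-376a*A and 356, 389 and 342 with miR-376a*G, against 150.5, 421 and 409 with miR-control. The difference from miR-control was 0.57 (SE 0.29) for miR-376a*A and 0.23 (SE 0.29) for miR-376a*G. Without control replicate 1, which differed from the other controls by -1.27, they were 0.15 (SE 0.12) and -0.20 (SE 0.12), so that the sign for miR-376a*G turned. The miR-376a*A arrays lay above the miR-376a*G arrays by 0.34, a difference that uses no control array. Its SE was pooled over the 3 groups, controls included, and was 0.29. Without control replicate 1 the SE was 0.10 (interval 0.12 to 0.57), and the difference was short of the threshold in both settings. On the other probe set past the filter those 2 groups overlapped at 0.40 (SE 0.21). Against miR-control that probe set stood at 0.36 for miR-376a*A and -0.04 for miR-376a*G (SE 0.21 each). Without control replicate 1 it stood at 0.25 and -0.15. After normalization its miR-376a*A arrays lay above all controls, while its miR-376a*G arrays overlapped them. The third TGFBR1 probe set was below the filter.

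Among the type II receptors, TGFBR2 lay above miR-control with both forms, and BMPR2 lay below it with miR-376a*G after normalization. TGFBR2, which binds TGF-beta and phosphorylates TGFBR1, had signals of 506, 447 and 529 with miR-376a*A and 400.4, 433 and 504 with miR-376a*G, against 243, 307 and 338 with miR-control. All 6 transfected-form arrays lay above all 3 controls. The difference was 0.69 (SE 0.12, interval 0.42 to 0.97) for miR-376a*A, 1.62-fold higher, and 0.53 (SE 0.12, interval 0.26 to 0.81) for miR-376a*G, 1.45-fold higher. The values were 0.60 and 0.45 (SE 0.10 each) without control replicate 1. Between the forms the arrays overlapped (0.16, SE 0.12, interval -0.12 to 0.43). The difference for miR-376a*G was past the threshold in 9 of 20 alternative settings. It was not past it with arrays centred on their medians or with only the 6 arrays compared. The same held with the replicate number as a block, which left the value at 0.53, and without any 1 array of either form or control replicate 2. The difference for miR-376a*A was past the threshold in 16 of 20, but not with only the 6 arrays compared or without miR-376a*A replicate 1 or 3. The dim second probe set, below the filter, stood at 0.36 and 0.28, and at 0.43 and 0.35 without control replicate 1.

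BMPR2, the type II receptor of the BMPs, had signals of 271, 268 and 228 with miR-376a*A and 209.9, 247 and 228 with miR-376a*G, against 240.2, 297 and 348 with miR-control. The deposited signals of the groups overlapped, while after normalization the miR-376a*G arrays lay below all controls. The differences were -0.21 (SE 0.13) for miR-376a*A and -0.37 (SE 0.13, interval -0.65 to -0.08) for miR-376a*G. Without control replicate 1 they were -0.30 and -0.46 (SE 0.10 each), and the second of these passed the threshold. All 5 BMPR2 probe sets past the filter were below 0 in both comparisons, at -0.27 to -0.11 for miR-376a*A and -0.37 to -0.05 for miR-376a*G. Without control replicate 1 they ran from -0.46 to -0.02 and from -0.46 to 0.04, with 1 of the 5 above 0 for miR-376a*G. The probe sets share the gene and are no replicates of one another. The sixth, below the filter, was at 0.00 and -0.11, and at 0.09 and -0.03 without that array.

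ACVR2A, a type II receptor for activins that also binds BMPs, read 65.0, 51.2 and 65.2 with miR-376a*A and 68.3, 70.4 and 69.6 with miR-376a*G, against 40.6, 49.5 and 60.7 with miR-control. The miR-376a*G arrays lay above every other array, with a difference from miR-control of 0.44 (SE 0.14; 0.30 without control replicate 1). For miR-376a*A it was 0.28 (SE 0.14; 0.14 without that array), and the groups overlapped. On the second probe set control replicate 1 had a signal of 6.85 beside 34.0 and 37.9 in the other controls, and the differences of 0.47 and 0.66 dropped to 0.06 and 0.25 without it.

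Neither accessory receptor was past the threshold with all 9 arrays. TGFBR3 (betaglycan), which presents TGF-beta to TGFBR2, had signals of 163, 131 and 136 with miR-376a*A and 131, 134 and 132 with miR-376a*G, against 100.1, 116 and 148 with miR-control. Its groups overlapped in all 3 comparisons, with differences of 0.22, 0.12 and 0.11 (SE 0.13 each) for the unedited form against miR-control, the edited form against miR-control and the unedited against the edited form. The differences from miR-control were 0.14 and 0.03 without control replicate 1. The second probe set gave 0.43, 0.10 and 0.34 (SE 0.18 each), and without that array its differences from miR-control were 0.28 and -0.06, so that the sign for miR-376a*G turned.

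ENG (endoglin), best known from endothelial cells, where it acts with TGF-beta and BMP receptors, had signals of 403, 379.5 and 349 with miR-376a*A and 371, 334 and 374 with miR-376a*G, against 374, 274 and 325 with miR-control. These overlapped, at 0.21 and 0.13 (SE 0.14 each). Control replicate 1 was here the highest control, and without it the differences were 0.34 and 0.26 (SE 0.10 each), the first of which passed the threshold. On the second probe set the signals were 86.6, 87.8 and 83.7 with miR-376a*A and 88.8, 86.2 and 85.2 with miR-376a*G, against 74.5, 70.3 and 69.1 with miR-control. Both forms were there above all controls, at 0.25 each (SE 0.10; 0.29 each without control replicate 1).

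**Figure D2:**
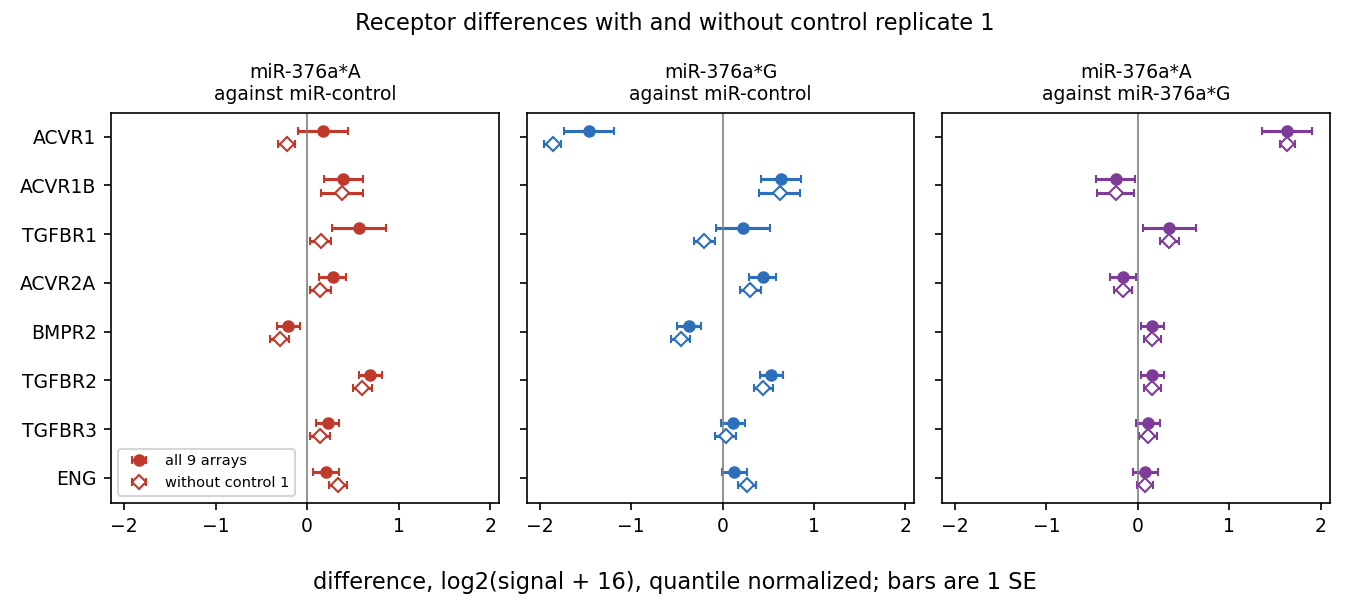
Difference in log2(signal + 16) after quantile normalization for each measured receptor in the 3 comparisons, with all 9 arrays (filled circles) and without control replicate 1 (open diamonds); bars are 1 SE. ACVR1 stands at -1.46 for miR-376a*G against miR-control and at 1.63 between the forms, and TGFBR1 for miR-376a*G against miR-control lies on opposite sides of 0 in the 2 settings.

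Counted over the 8 measured receptors, 1 (TGFBR2) was past an adjusted p of 0.05 for miR-376a*A against miR-control, where 3.33% of the 12505 genes tested were. For miR-376a*G against miR-control it was 2 (ACVR1 lower, TGFBR2 higher), where 4.62% of genes were, or 1 with the replicate number as a block, a fit that called 360 genes in place of 578. Between the forms it was 1 (ACVR1, higher with the unedited form), where 2.63% of genes were. The counts were 2, 3 and 1 without control replicate 1, where 13.3%, 17.0% and 9.68% of genes passed. The arrays of the groups did not overlap for 1, 5 and 3 receptors in the same order of comparisons, against 20.5%, 21.7% and 29.5% of all genes. Without control replicate 1 they did not overlap for 4, 7 and 3 receptors, against 44.1%, 45.4% and 29.5% of all genes. Since the choice of receptors used these contrasts, nothing is read from the counts.

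The median difference of the 8 receptors was 0.25 for miR-376a*A and 0.18 for miR-376a*G against miR-control, and 0.13 between the forms, beside medians of 0.01, 0.01 and 0.00 over all genes. Differences were above 0 for 7, 6 and 6 of the 8 receptors, and for 6, 5 and 6 without control replicate 1. The comparisons with miR-control share its 3 arrays. Of the 8 receptors only ACVR1 differed by at least 2-fold, for miR-376a*G against miR-control and between the forms. The receptor counts were thus 0, 1 and 1 in the 3 comparisons, beside 110, 111 and 77 of the 12505 genes tested.

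**Figure D3:**
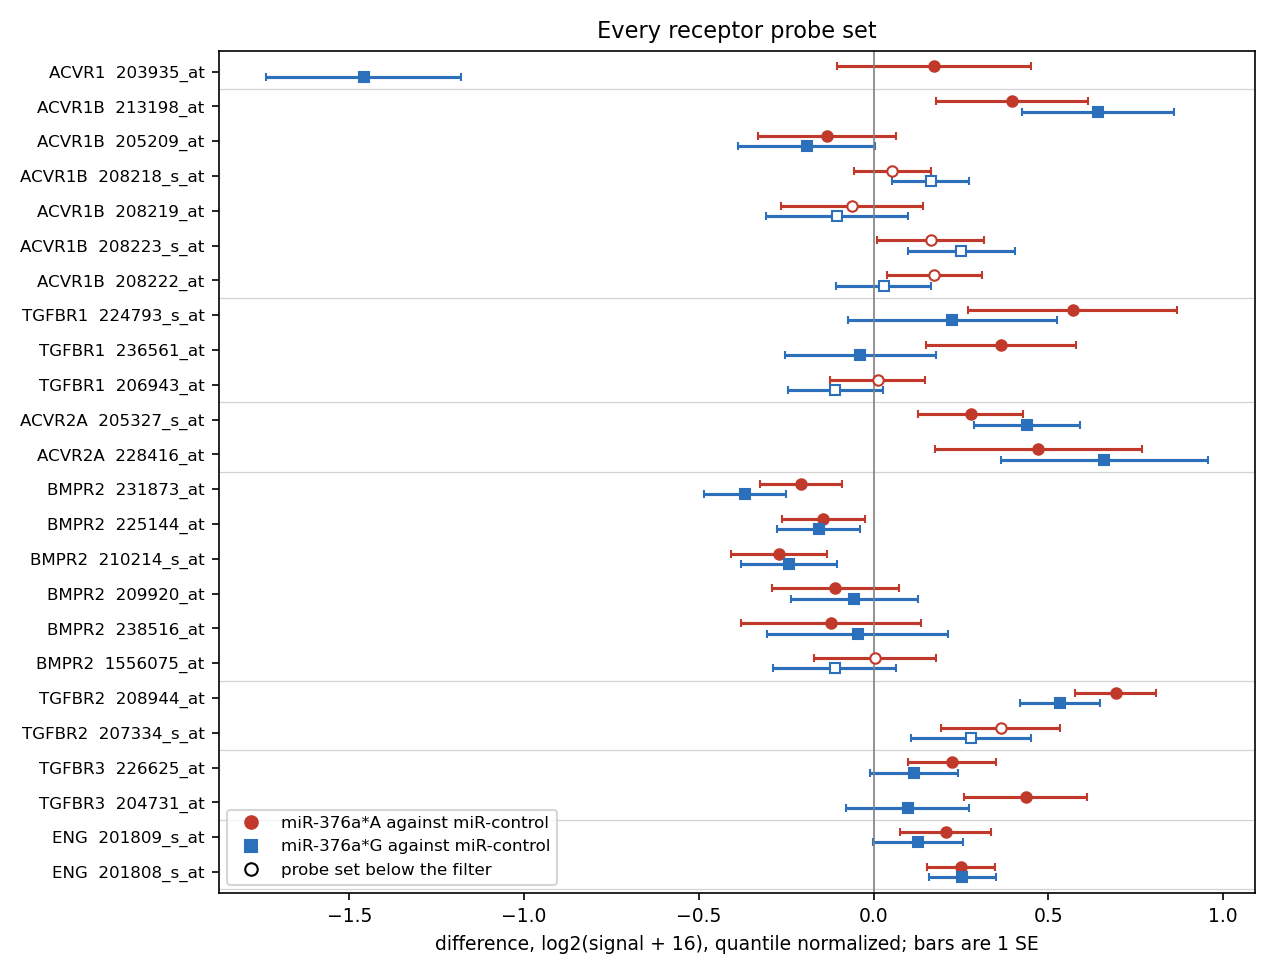
Difference from miR-control in log2(signal + 16) after quantile normalization for every receptor probe set, for miR-376a*A (red circles) and miR-376a*G (blue squares); bars are 1 SE and open symbols are the 7 probe sets below the filter. With all 9 arrays, the BMPR2 probe sets past the filter all lie below 0, both ACVR2A and both ENG probe sets lie above it, and those of ACVR1B lie on both sides.

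The other genes of the pathway were taken from 6 lists holding 123 genes, of which 116 had a probe set and 93 passed the filter. Among these 93, 5 genes passed the threshold for miR-376a*A against miR-control (4 rose, 1 fell), 6 for miR-376a*G against miR-control (4 rose, 2 fell) and 4 between the forms (3 higher and 1 lower with the unedited form). These are adjusted p-values from limma over all 12505 genes, and the shares are to be set beside the same 3.33%, 4.62% and 2.63%. The lists were chosen with earlier results of these arrays known, so these p-values describe the arrays and are no independent evidence. Median differences over the 93 were 0.05, 0.04 and 0.05. Without control replicate 1 the counts were 14 (8 rose, 6 fell), 19 (8 rose, 11 fell) and 19 (8 higher, 11 lower), where 13.3%, 17.0% and 9.68% of all genes passed.

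Among the lists nearest to the receptors, 1 co-receptor and 1 ligand gene passed. Of 7 other receptors and co-receptors, RGMB, a BMP co-receptor, rose with miR-376a*A (0.55, SE 0.10, limma adjusted p = 0.0147) and stood at 0.19 with miR-376a*G (adjusted p = 0.388). Its signals were 394, 409.9 and 386 with miR-376a*A and 333, 307 and 284 with miR-376a*G, against 235, 282 and 269.7 with miR-control. Its other 2 probe sets disagreed, at -0.45 and 0.70, and the mean of its probe sets gave 0.27 (limma adjusted p = 0.136), short of the threshold. Of 13 ligand genes, INHBA, which encodes the subunit that makes up activin A, was higher with the unedited than with the edited form (0.74, SE 0.13, limma adjusted p = 0.0169). It read 715, 636 and 663 with miR-376a*A and 429, 368 and 395 with miR-376a*G, beside 416, 633 and 559 with miR-control, and did not pass the threshold against miR-control with either form (0.30, adjusted p = 0.341, and -0.44, adjusted p = 0.106). RGMB lost its call without any 1 of the miR-376a*A arrays, and INHBA without any 1 array of either form.

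Of 17 extracellular binders and antagonists, TWSG1 fell with miR-376a*A, and GREM1 and NOG rose with miR-376a*G. TWSG1, which binds BMPs together with chordin, had signals of 189, 183 and 166 with miR-376a*A and 284, 301 and 309 with miR-376a*G, against 277, 409 and 553 with miR-control. The difference for miR-376a*A was -1.12 (SE 0.19, limma adjusted p = 0.00891), and it did not pass without miR-376a*A replicate 3; its other probe set stood at -0.16. GREM1, a secreted BMP antagonist, had signals of 176, 173 and 150.1 with miR-376a*A and 205, 203 and 219.8 with miR-376a*G, against 43.0, 105 and 109 with miR-control. It rose with miR-376a*G by 1.27 (SE 0.26, limma adjusted p = 0.0218; 0.89 without control replicate 1), a call lost without any 1 of the miR-376a*G arrays. With miR-376a*A the difference was 0.97 (adjusted p = 0.0822). NOG, the BMP antagonist noggin, had signals of 52.1, 48.4 and 45.7 with miR-376a*A and 71.8, 73.3 and 61.9 with miR-376a*G, against 30.6, 42.2 and 32.7 with miR-control. It rose with miR-376a*G by 0.80 (SE 0.13, limma adjusted p = 0.00714). The miR-376a*A signals of NOG also lay above every control, but NOG did not pass the threshold with that form.

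None of the 25 SMADs and intracellular regulators passed limma's threshold in any comparison, while 5, 7 and 7 of them had an unadjusted p under 0.05, as did 14.9%, 17.8% and 10.7% of all genes. Without control replicate 1, where 13.3%, 17.0% and 9.68% of all genes passed, the counts were 4 lower and 0 higher for miR-376a*A against miR-control, 3 lower and 1 higher for miR-376a*G against miR-control, and 6 lower and 0 higher for the unedited against the edited form. In that setting SMAD2, SMURF2, TGIF1 and MAP3K7 were lower with miR-376a*A. SMAD2, ZFYVE9 and PMEPA1 were lower and TAB1 was higher with miR-376a*G. These genes are named because the counts are small, after their values were seen. SMAD2, which carries TGF-beta and activin signals, stood at -0.20 (limma adjusted p = 0.579) for the unedited and -0.32 (adjusted p = 0.283) for the edited form with all 9 arrays, and at -0.38 (adjusted p = 0.00695) and -0.50 (adjusted p = 0.00131) without control replicate 1.

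Among 24 TGF-beta response genes, IL11 rose with both forms and more with the unedited one, while CCN2 and COL4A1 changed with miR-376a*G. Earlier results of these arrays were known when the list was chosen, the rise of IL11 among them. IL11 is a cytokine of the interleukin-6 family. It had signals of 232, 239 and 264 with miR-376a*A and 151, 119.6 and 141 with miR-376a*G, against 50.0, 68.3 and 62.9 with miR-control. The differences were 1.82 for miR-376a*A (limma adjusted p = 9.44e-05) and 1.04 for miR-376a*G (adjusted p = 0.00264), and 0.78 between the forms (adjusted p = 0.0151; SE 0.14 in each). CCN2, a matricellular protein, read 898, 975 and 991 with miR-376a*A and 1634, 1414 and 1784 with miR-376a*G, against 1025, 858 and 877 with miR-control. It rose with miR-376a*G by 0.85 (SE 0.10, limma adjusted p = 0.00131) and differed between the forms by -0.80, lower with the unedited one (limma adjusted p = 0.00197). COL4A1, a collagen chain of basement membranes, read 899, 910.3 and 907 with miR-376a*A and 471, 512 and 566 with miR-376a*G, against 1018, 874 and 1047 with miR-control. It fell by 0.92 with miR-376a*G (SE 0.10, limma adjusted p = 0.000943). Between the forms it was past the threshold too, higher with the unedited one. CCN2 and COL4A1 thus passed in opposite directions in the same cells, and both stayed past the threshold without any 1 array. CDKN1A, the cell-cycle inhibitor p21, rose with miR-376a*A (0.53, SE 0.11, limma adjusted p = 0.0323), with 201, 191 and 224 against 115, 154 and 142 with miR-control; it stood at 0.10 with miR-376a*G. Of the IL11, CCN2, COL4A1 and CDKN1A calls, that of CDKN1A was lost without any 1 array of either form or control replicate 3, and that of IL11 between the forms without any miR-376a*A array or miR-376a*G replicate 2 or 3.

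Of 17 BMP response genes, 3 passed in a comparison with miR-control and none between the forms. By limma, 6 had an unadjusted p under 0.05 for miR-376a*A against miR-control, 4 for miR-376a*G against miR-control and 3 between the forms. Over all genes the shares were 14.9%, 17.8% and 10.7%. Those past the threshold were HEY1, GATA2 and NOG, whose values stand among the binders above. HEY1, a transcriptional repressor of the Hairy family, rose with miR-376a*A (0.62, SE 0.13, limma adjusted p = 0.0278), with signals of 232, 230.3 and 245 against 111, 169 and 167 with miR-control, and stood at 0.20 with miR-376a*G. GATA2, a zinc-finger transcription factor, fell by 0.59 with miR-376a*G (SE 0.12, limma adjusted p = 0.025), with signals of 58.1, 60.5 and 55.1 against 104, 89.5 and 95.1. Its other 2 probe sets were at 0.63 and 0.09, and the mean of its probe sets gave 0.04 (adjusted p = 0.855). HEY1 lost its call without any 1 array of either form, and GATA2 without any 1 of the miR-376a*G arrays.

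**Figure D4:**
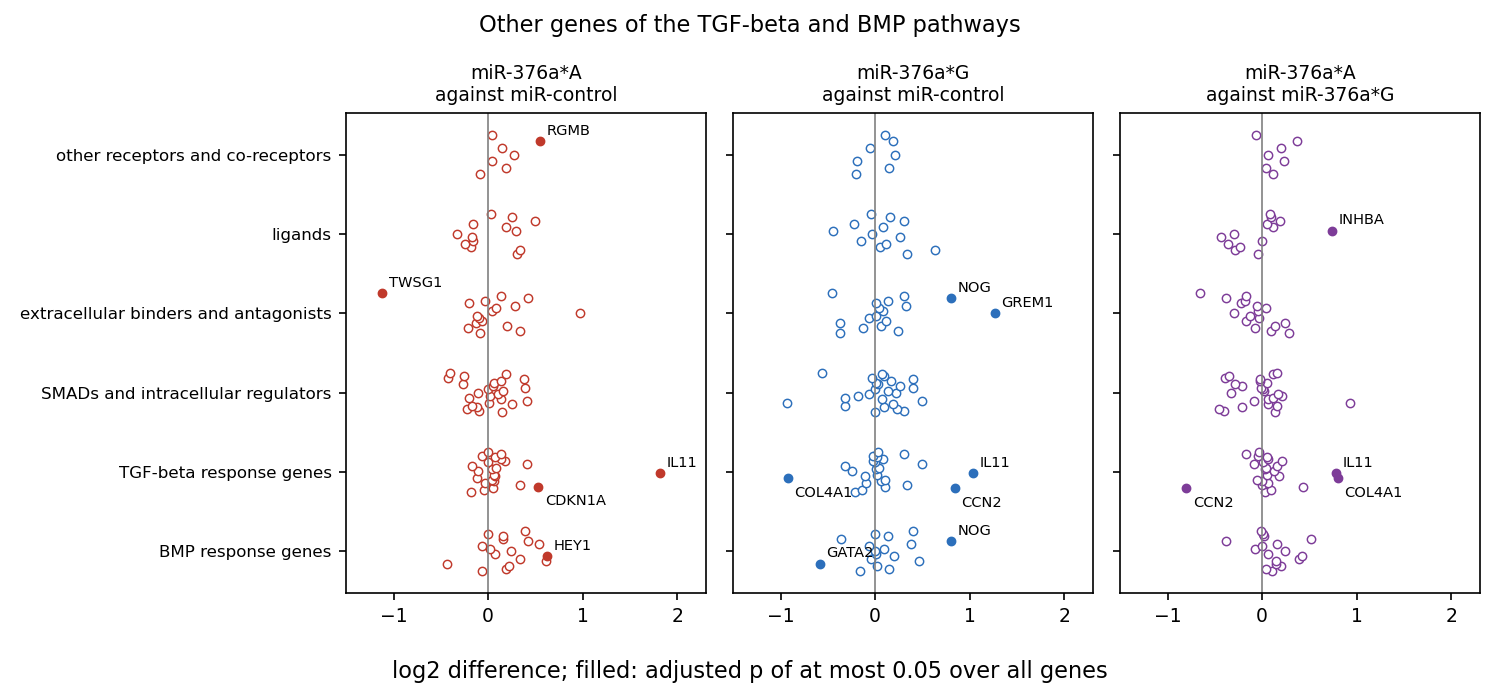
Difference in log2(signal + 16) of the 93 tested pathway genes that are not among the 9 receptors, by list and comparison; 1 point is 1 gene, a gene on several lists is drawn on each, and filled, named points have an adjusted p of at most 0.05 over all genes. IL11 lies farthest right, at 1.82 with miR-376a*A, and no SMAD or intracellular regulator is filled.

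The genes whose pattern over the 9 arrays lay nearest to that of ACVR1 were SLC30A6, ABL1, ROR1, PABIR2 and UBP1. Nearness was the Euclidean distance between log2 values, each gene centred on its own mean. It was 0.48, 0.63, 0.66, 0.78 and 0.87 in that order, beside a median of 2.50 over the 12504 other genes. The first of them, SLC30A6, a zinc transporter of the secretory pathway, had signals of 195, 203 and 183 with miR-376a*A and 53.7, 63.5 and 53.5 with miR-376a*G, against 117, 219.9 and 257 with miR-control. It shared with ACVR1 both the low miR-376a*G arrays and the low control replicate 1. ABL1, a non-receptor tyrosine kinase, had signals of 808, 764 and 752 with miR-376a*A and 244, 249.8 and 251 with miR-376a*G, against 603, 846 and 929 with miR-control. ROR1, a receptor tyrosine kinase of Wnt signalling, had signals of 103 to 144 with miR-376a*A and 29.0 to 48.9 with miR-376a*G, against 84.0 to 205 with miR-control. In all of the 5 the miR-376a*G arrays lay below every other array, and control replicate 1 was the lowest control. The 5 were picked for nearness to ACVR1 on these same arrays, so this shared pattern follows from the choice. Differences between miR-376a*G and miR-control ran from -1.64 to -0.85 among them.

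**Figure D5:**
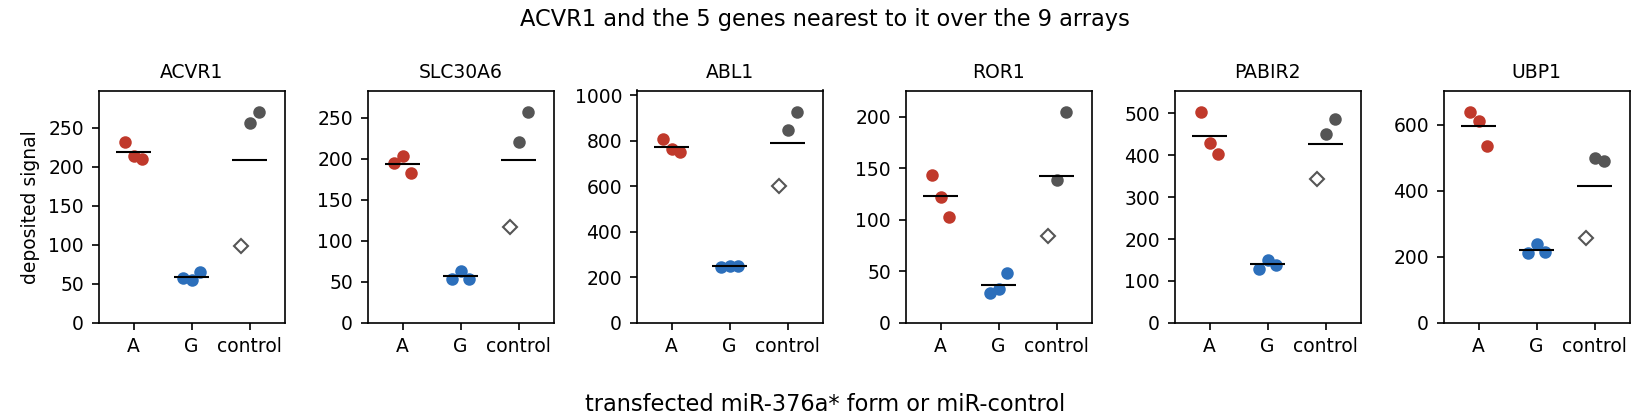
Deposited signal (linear scale) of ACVR1 and of the 5 genes nearest to it by distance over the 9 arrays, by transfected form (A, miR-376a*A; G, miR-376a*G; control, miR-control). Points are arrays, the open diamond is control replicate 1 and bars are group means. The miR-376a*G arrays are the lowest in all 6 panels, which follows from picking the 5 genes by nearness to ACVR1.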

How the data were processed

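The deposited table holds 1 intensity per probe set and array, made by the authors with GCOS 1.4.0.036, per the submitters' processing notes. The scaling is not stated in the labels used here, and each array's mean after trimming 2% at each end came to 100. Probe sets were named through the platform annotation (41097 with 1 symbol, 1801 with several, 11777 with none).

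The deposited intensities were turned into log2(signal + 16) and quantile normalized, because array medians spread over 0.20 on the log2 scale. Probe sets under the 50th percentile of mean signal were dropped, the brightest of each gene was kept and 12505 genes were fitted with limma 3.58.1 (R 4.3.3), with 3 groups together, empirical Bayes with a trend, and Benjamini-Hochberg adjustment at 0.05 over all genes. A fold change on this scale understates that of dim genes. Fits without an array kept the normalization and gene set of all 9. The procedure was also run on simulated data with no outlying array, a run that cannot show how control replicate 1 affects the calls. The smallest exact permutation p for 3 against 3 is 0.1, so no such test is given. The number of arrays limits the precision, and the labels call the replicates biological without saying what separated them.

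The members and lists were chosen with earlier results of these data known. Named genes were the receptors, up to 4 called genes of largest absolute difference per list and comparison, and the 5 nearest to ACVR1; 7 SMADs and intracellular regulators that passed without control replicate 1 were named after their values were seen. Deviations from the group means correlated weakly and positively between same-numbered samples of miR-376a*G and miR-control (0.156, 0.187 and 0.125). For that comparison the fit with the replicate number as a block is given beside the unblocked one where it changes a call or count. The correlations were -0.335, 0.0315 and -0.361 for miR-376a*A and miR-control, and -0.0909, -0.0984 and -0.0313 between the forms. Samples of different numbers were not compared, so these values cannot show whether the samples were paired. Sensitivity to normalization, pseudocount, filter, probe-set choice, array weights, pairing and single arrays was examined. Values that need transcript sequences were not analysed here.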

Additional observations from a re-analysis of the deposited data

How the results depend on the processing

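Most counts moved with the weight given to single arrays. For miR-376a*A against miR-control, the 417 genes past the threshold became 2315 with array weights, 156 with the 6 arrays compared, 18 with those arrays and a replicate block, and 176 to 1669 leaving out 1 array. The 5 pathway genes became 3 with arrays centred on their medians, 19, 1 and 1 in the first 3 of these settings, 3 with the block alone and 1 to 14 leaving out 1 array; the 1 receptor became 2, 0 and 0, and 0 to 2. For miR-376a*G against miR-control, the 578 genes became 2427, 204 and 167, 360 with the replicate block alone and 235 to 2124 leaving out 1 array; the 6 pathway genes became 25, 3 and 2, and 4 to 19. The 2 receptors became 1 with arrays centred on their medians, 5, 0 and 0, 1 with the block alone, and 0 to 3. Between the forms, the 329 genes became 1656, 1292 and 1004, and 143 to 1210; the 4 pathway genes became 23, 20 and 15, and 2 to 19; the 1 receptor became 0 at the lowest without 1 array. The highest count without 1 array was that without control replicate 1, except for the 1 receptor between the forms. ACVR1 between the forms was 1.19 with a pseudocount of 64. GATA2 with miR-376a*G stood at 0.0418, the opposite sign, when probe sets were averaged; the cause was not tested beyond the disagreement of those probe sets. The replicate block, where samples share only a number, ended the calls of CDKN1A and HEY1 with miR-376a*A and of INHBA between the forms; in miR-376a*G against miR-control it ended that of TGFBR2 and of no named pathway gene. The other values are those of the receptors besides ACVR1 and of the named pathway genes. Of them, 655 moved by less than the replicate SD (receptors) or kept direction and call (pathway genes). Another 58 pathway values lost the call in the same direction, and 6 receptor values moved by more than that SD. The SD includes control replicate 1 and lost receptor calls are not counted, so the 655 do not show that receptor calls held. TGFBR1 with miR-376a*G, whose sign turned without that array, is among them.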
